A study of Mus musculus with 8 samples.

Results

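The 47 genes described here encode the proteasome, its regulators and its assembly factors. They are every symbol of the form Psma, Psmb, Psmc, Psmd, Psme, Psmf or Psmg with a number among the 6933 genes of the authors' expression table. Within that table the choice went by name, with earlier results of these data known. The table holds fewer genes than the 17580 identifiers counted in the libraries. The name pattern takes in 1 gene whose product is not a subunit, Psmc3ip, a recombination factor, and 1 retrogene, Psme2b. It misses Psmb5, which the expression table does not hold. Psmb5 was counted in the deposited library tables and is given here as a non-member beside the subunits it works with.

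The proteasome degrades proteins tagged with ubiquitin. Its 20S core is a barrel of alpha rings around beta rings, and the beta subunits Psmb6, Psmb7 and Psmb5 carry the proteolytic sites. In immune cells, and in other cells exposed to interferon gamma, the newly made core takes up Psmb9, Psmb10 and Psmb8 in their places, in that order, and is then called the immunoproteasome, whose products suit loading onto MHC class I. The 19S cap (Psmc ATPases and Psmd subunits) recognises and unfolds tagged proteins, and the 11S cap of Psme1 and Psme2, also inducible by interferon gamma, opens the core without needing ubiquitin.

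RNA was counted as molecules (UMIs, unique molecular identifiers) in single cells from tumours of 4T1, a mouse mammary carcinoma line, grown under the skin of Balb/c mice for 10 days. Tumour was digested for 1 h with protease of Bacillus licheniformis in 4 conditions, 37C or 4C, each without or with an inhibitor of transcription, actinomycin D, at 2 nM. The 37C tubes ran on an OctoDissociator with heaters and the 4C tubes on a gentleMACS dissociator, so temperature and instrument cannot be told apart. Each condition was 1 suspension pooled from 6 pieces of different mice and split into aliquots A and B, which gives 8 libraries with 2 per group, and all had erythrocytes, debris and dead cells removed. Because both libraries of a group come from 1 suspension, p-values measure the spread between aliquots and not between tumours. No genotype change and no age is given in the labels.

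The authors' annotation names 654 cells: 325 tumour cells, 154 T cells, 109 macrophages and 66 NK cells. Totals over the annotated cells of a library ran from 158314 to 199929 UMIs at 37C, and at 4C from 23212 to 65149. Tumour cells were 54.7% ± 11.2 (SD, n = 4) of annotated cells at 37C and 38.6% ± 7.39 (n = 4) at 4C, and T cells 16.9% ± 9.07 and 38.1% ± 6.81. Macrophages were 21.3% ± 6.91 and 7.45% ± 4.91 of annotated cells, and NK cells 7.09% ± 4.23 and 15.9% ± 7.23. Levels are counts per 1000000 UMIs of the summed cells (CPM). The 10 T cell markers summed to 9249 CPM in T cells, 3960 in NK cells and 29.2 in tumour cells. The 9 NK cell markers summed to 18022 in NK cells, 2407 in T cells and 46.4 in tumour cells. By these markers T cells and NK cells were less distinct from each other than from tumour cells. The 10 macrophage markers summed to 23994 in macrophages and 185 in tumour cells. Epithelial markers summed to 1636 in tumour cells, with Epcam and Cldn7 at 0. Cells annotated as macrophages also held 3212 CPM of 4 mast cell and basophil markers. These came mainly from 37C no inhibitor A (151 UMIs, 5599 CPM), 37C with inhibitor A (154 UMIs, 2816 CPM) and 4C no inhibitor A (150 UMIs, 25571 CPM), against 0 to 14 UMIs in the other libraries. Of 653 annotated barcodes, 1 occurred in 2 libraries.

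The 47 members held 13 to 734 UMIs each in annotated cells. The 3 immune catalytic subunits were among the members with the most UMIs, with 734 for Psmb10, 733 for Psmb8 and 398 for Psmb9. Among the constitutive subunits, Psmb6 had 292 UMIs, Psmb7 had 33 and Psmb5 had 31. The reads come from transcript 3′ ends, so UMIs do not scale with gene length, but ends differ in how well a read can be assigned. Words of 50 bases from the last 300 bases were searched in both orientations in the GENCODE vM21 transcripts. A match on the opposite strand thus also counts as shared, and the strand setting of the counting is not given. Of the words of Psmb7, 82.1% also occurred in Nek6, and of those of Psmb5, 51.4% occurred in Gm3375. Psmb6, Psmb9, Psmb10 and Psma7 shared 0% with another gene, and Psmb8 shared 10.8% with Gm20496. The levels of Psmb7 and Psmb5 are therefore uncertain. Of the 47 members, 30 shared no such word with another gene and 7 shared at least 50%.

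Psmb8 and Psmb9 lie close together on mouse chromosome 17 (GRCm38, 34197721 to 34201454 on the plus strand and 34181987 to 34187764 on the minus strand). Psmb10 lies on chromosome 8 (105935735 to 105938444, minus strand) and Psmb6 on chromosome 11 (70525367 to 70527858, plus strand). Upstream DNA is shown for Psmb10, the immune subunit that differed most between cell types, and for the constitutive Psmb6. It is also shown for Psme2, the 1 member called for temperature. The sequences are from the RefSeq promoter table of GRCm38.p6, cut where an annotated exon begins, 5′ to 3′ on the gene's strand, and capitals mark a match to TGANNNNGC, the core of the antioxidant response element.
Psmb10, chr8:105938445-105938642, minus strand: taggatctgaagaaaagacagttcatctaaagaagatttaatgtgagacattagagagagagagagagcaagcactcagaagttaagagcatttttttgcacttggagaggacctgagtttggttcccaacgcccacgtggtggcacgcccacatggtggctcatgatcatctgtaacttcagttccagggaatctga
Psmb6, chr11:70525107-70525356, plus strand: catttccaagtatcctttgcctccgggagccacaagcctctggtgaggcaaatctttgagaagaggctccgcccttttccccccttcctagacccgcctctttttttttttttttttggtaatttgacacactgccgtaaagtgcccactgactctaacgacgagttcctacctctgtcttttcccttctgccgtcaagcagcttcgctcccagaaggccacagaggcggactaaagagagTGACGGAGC
Psme2, chr14:55591114-55591351, minus strand: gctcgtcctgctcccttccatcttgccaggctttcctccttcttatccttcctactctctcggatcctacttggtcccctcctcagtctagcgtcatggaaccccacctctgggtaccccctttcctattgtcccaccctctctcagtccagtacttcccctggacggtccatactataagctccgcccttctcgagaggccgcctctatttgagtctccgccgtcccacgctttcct

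In Psmb6 the match starts 9 bases before the RefSeq start, and 41.3% of all 32851 windows of 300 bases in the table held this motif on either strand. The stretch shown for Psmb10 held none of 3 motifs searched on both strands, which were this one, the interferon-stimulated response element core GAAANNGAAA (3.44% of windows) and the gamma-activated site core TTCNNNGAA (8.3% of windows). The stretch shown for Psme2 held none of the 3 either. Outside that stretch, within an annotated exon, Psme2 had a TGANNNNGC match. It lies 14 bases after the RefSeq start that the stretch shown here belongs to, and 67 bases before a second RefSeq start. Psme1, not shown, had a GAAANNGAAA match 10 bases after its start, also within an exon. The 250 bases upstream of Psmb8 and of Psmb9 lay wholly within annotated exons and are not shown. Psmb8 had a TTCNNNGAA match 97 bases before its start and Psmb9 a TGANNNNGC match 60 bases before.

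Psmb10, which replaces Psmb7 in the immunoproteasome, was higher in tumour cells than in each of the other annotated types. In tumour cells the 8 libraries ranged from 535 to 1366 CPM with a median of 1069. The same libraries gave 123 to 707 in T cells (median 313), and the 6 libraries with at least 5 cells of the type gave 332 to 895 in macrophages (median 615) and 80.2 to 542 in NK cells (median 271). Tumour and T cell values overlapped through 1 library, 4C with inhibitor A, in which tumour cells had 8 UMIs and T cells 4. Within libraries, T cells were below tumour cells in 7 of 8, macrophages in 6 of 6 and NK cells in 6 of 6.

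Cell types were compared in edgeR's quasi-likelihood fit with the library as a block and Benjamini-Hochberg adjustment over all 328 genes that passed the filter on low counts. Only 6 of the 47 members passed that filter, Psmb10, Psmb8, Psmb9, Psmb4, Psma7 and Psme1, and these comparisons say nothing of the others. The types were named by the authors from expression in the same cells, so the p-values are not independent of the annotation. Psmb10 was 3.59-fold lower in T cells than in tumour cells (log2 fold change -1.84 ± 0.27 SE, adjusted p = 1.27e-07), and 3.97-fold lower in NK cells (-1.99 ± 0.38, adjusted p = 1.67e-05). In macrophages it was 1.59-fold lower (-0.67 ± 0.26, adjusted p = 0.0233). The macrophage call was lost without 37C no inhibitor A, 37C with inhibitor A or 37C no inhibitor B, with adjusted p of 0.0876, 0.0588 and 0.0732. It was also lost in the 4C libraries alone (-0.56, adjusted p = 0.567). Without 4C no inhibitor A it held (-0.71, adjusted p = 0.0255). Of the 3 libraries whose macrophages held 150 to 154 UMIs of mast cell and basophil markers, leaving out either one at 37C ended the call and leaving out the one at 4C did not, and the part of these markers in the result was not tested. The T cell and NK cell calls held in all 16 alternatives in which Psmb10 could be tested.

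Free RNA sets a limit on reading the lower levels. In barcodes of 10 to 100 UMIs, taken here as a measure of RNA from outside cells, Psmb10 stood at 419 CPM. The pooled level was 1029 in tumour cells and 572 in macrophages, but 297 in T cells and 270 in NK cells. The T cell and NK cell levels lie below that of free RNA and are not read as expression. Median depth was 1124 to 1807 UMIs per tumour cell at 37C and 743 to 1027 per T cell, and 977 to 1113 against 309 to 400.5 at 4C.

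Psmb9, which replaces Psmb6, stood the other way in T cells. Its T cell values were 233 to 1053 CPM with a median of 761, and its tumour values 263 to 802 with a median of 458, so the types overlapped, and T cells were higher in 7 of 8 libraries. In the edgeR fit Psmb9 was 1.48-fold higher in T cells (0.56 ± 0.25, adjusted p = 0.0438). The call held in 7 of 15 alternatives and was lost without any 1 of the 4 libraries at 37C. Without a block for the library the adjusted p was 0.0885, and with the aliquots summed it was 0.156. Free RNA held Psmb9 at 384 CPM.

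Psmb8, which replaces Psmb5, was at 921 to 1591 CPM in T cells (median 1101) and at 532 to 1059 in tumour cells (median 731). T cells were higher in 6 of 8 libraries, and the difference did not pass the test (0.35 ± 0.20, adjusted p = 0.12). Medians in NK cells and macrophages were 705 and 643, also without a call (adjusted p = 0.351 and 0.661). Free RNA held 646 CPM of Psmb8, close to the pooled macrophage level of 620. By median the order was T cells, tumour cells, NK cells and macrophages, of which no type passed the test against tumour cells.

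**Figure D1:**
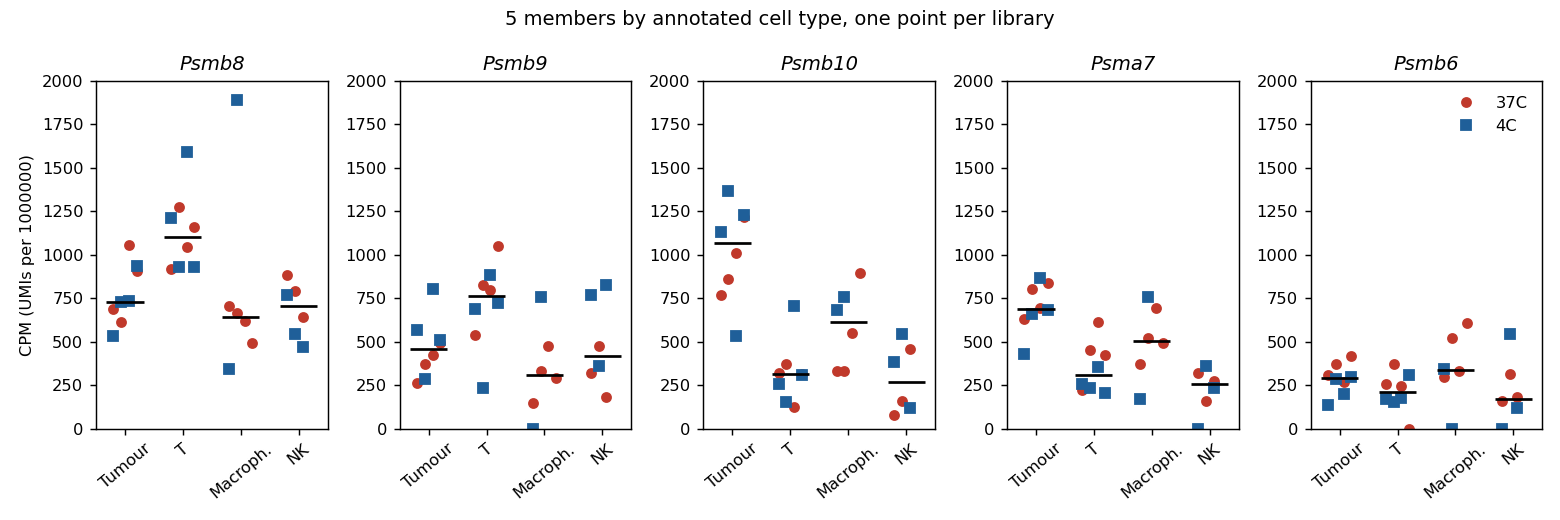
CPM in each library (points, circles at 37C and squares at 4C) and their median (bar) for Psmb8, Psmb9, Psmb10, Psma7 and Psmb6 in the 4 annotated types, where the library had at least 5 cells of the type. Psmb10 and Psma7 sit highest in tumour cells, with medians of 1069 and 687, and Psmb8 and Psmb9 sit highest in T cells, with medians of 1101 and 761.

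The make-up of the 3 immune subunits differed between tumour cells and T cells. Psmb10 made up 45.6% of their pooled UMIs in tumour cells (599 of 1314, exact Clopper-Pearson 95% interval 42.9 to 48.3), 37.6% in macrophages (31.3 to 44.3), 18.9% in NK cells (10.7 to 29.7) and 14.3% in T cells (36 of 251, 10.3 to 19.3). By library, the Psmb10 share was 25.8% to 57.4% in tumour cells and 6.25% to 22.2% in T cells, and these ranges did not overlap. Psmb9 made up 33.1% in T cells (27.3 to 39.3) and 18.5% in tumour cells (16.4 to 20.7). Intervals and floors cover counting error only.

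Taken as a group, the immune subunits (Psmb8, Psmb9 and Psmb10) held most of the UMIs of the 6 catalytic subunits in every type. Their share was 85.2% in tumour cells (83.3 to 86.9), 85.7% in T cells (81.1 to 89.5), 82.2% in NK cells (72.7 to 89.5) and 76.4% in macrophages (71.1 to 81.1). Over libraries it was 86.7% ± 4.31 (SD, n = 8) in tumour cells, 86.2% ± 3.20 (n = 8) in T cells, 82.5% ± 12.9 (n = 6) in NK cells and 79.3% ± 10.9 (n = 6) in macrophages. The spread over libraries covers the differences between types. Barcodes of 10 to 100 UMIs gave 83.7% at 37C (80.9 to 86.3) and 87.6% at 4C. This share thus did not set tumour cells, T cells or NK cells apart from free RNA. Macrophages at 37C were lower than free RNA, at 75.9% (70.4 to 80.9), a difference that was not tested. The share rests in part on Psmb7 and Psmb5, whose ends are uncertain, and it is not a ratio of proteins.

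**Figure D2:**
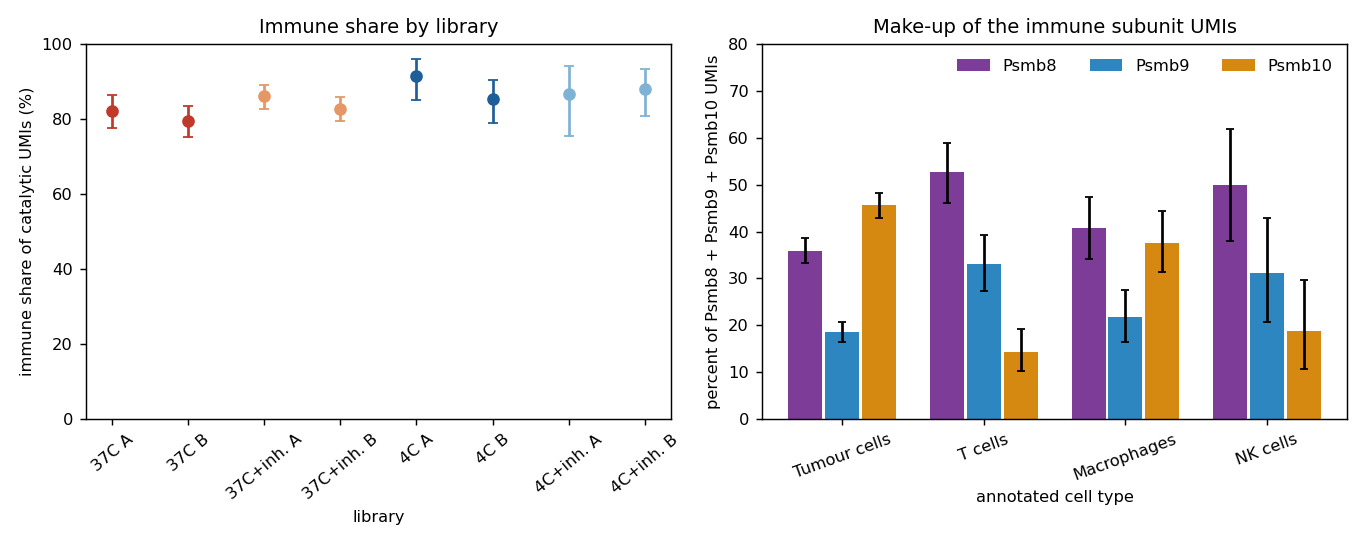
Left, UMIs of Psmb8, Psmb9 and Psmb10 as a percentage of those of all 6 catalytic subunits in the annotated cells of each library; right, percentage of the immune subunit UMIs that belong to Psmb8, Psmb9 and Psmb10 in each annotated type. Bars on points and columns are exact 95% binomial intervals, and the Psmb10 column falls from 45.6% in tumour cells to 14.3% in T cells.

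Outside the catalytic subunits, Psma7, a subunit of the alpha ring that frames the gate of the core, was higher in tumour cells than in lymphocytes. Tumour cell values were 432 to 869 CPM (median 687), T cell values 207 to 614 (median 306) and NK cell values 0 to 361 (median 255). T cells were below tumour cells in 8 of 8 libraries and NK cells in 6 of 6. Psma7 was 2.22-fold lower in T cells (-1.15 ± 0.24, edgeR adjusted p = 6.6e-05) and 3.03-fold lower in NK cells (-1.60 ± 0.36, adjusted p = 0.000207), and both calls held in all 12 alternatives in which it could be tested. In macrophages the median was 506 and the difference did not pass (-0.35 ± 0.24, adjusted p = 0.204). Free RNA held 514 CPM of Psma7, above the pooled T cell level of 346 and NK cell level of 232.

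Psmb4, a non-catalytic beta subunit, and Psme1, a subunit of the 11S cap, passed no test between types. Psmb4 had medians of 516 in tumour cells, 502 in T cells, 574 in macrophages and 594 in NK cells. For Psme1 the medians were 594, 517, 606 and 570 in the same order. Its difference between T cells and tumour cells was -0.48 ± 0.26 (adjusted p = 0.0936). The constitutive Psmb6 was too low for the fit, with medians of 292 in tumour cells, 211 in T cells, 335 in macrophages and 172 in NK cells.

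Counts of calls between types were high among all genes. In T cells against tumour cells 69.8% of the 328 genes were called in either direction, 63.4% in macrophages and 59.5% in NK cells, against 3, 1 and 2 of the 6 members. The members were thus not called more often than other genes. Their median log2 differences were -0.32, -0.18 and -0.39, and those of all genes -0.04, -0.03 and -0.08. Fitted without a filter on low counts, 12, 8 and 15 of 47 members were called lower than in tumour cells and 0 higher, where 16.0%, 14.4% and 12.7% of 14500 genes were called in either direction. In that fit the Psmb9 difference in T cells shrank to 0.06 with an adjusted p of 0.959. Psmb10 in macrophages moved from -0.67 to -1.29, and in NK cells Psmb8 moved from -0.31 to -1.19 and Psme1 from -0.46 to -1.35. All of these moved down when the filter was removed, and the all-gene shares are for both directions together. The counts of lower and higher calls are therefore not read as a trait of the members.

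Summed over all 47 members, levels in CPM were 10051 ± 1070 (SD, n = 8) in tumour cells, 8765 ± 1400 (n = 8) in T cells, 8162 ± 921 (n = 6) in macrophages and 7499 ± 1034 (n = 6) in NK cells. The 19S non-ATPase subunits summed to 1837 ± 292 in tumour cells and 1539 ± 460 in T cells, the alpha ring to 1724 ± 218 and 1180 ± 227, and the 19S ATPases to 1016 ± 198 and 858 ± 228. Sums of the 3 immune subunits were 2253 ± 354 and 2171 ± 562. These sums are descriptions without a test.

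For temperature, 1 of the 37 members tested was called, against 3.98% of all genes tested, and the call was lost in some alternatives. Psme2, the beta subunit of the 11S cap, was at 284 and 237 CPM in aliquots A and B at 37C without inhibitor, and at 310 and 373 with inhibitor. At 4C it was at 152 and 215 without inhibitor and at 86.2 and 67.7 with inhibitor. Every 37C library was above every 4C library, and the lowest pair was 4C with inhibitor, where the values rest on 2 and 3 UMIs. Averaged over inhibitor, Psme2 was 2.62-fold higher at 37C (log2 fold change 1.39 ± 0.33, edgeR quasi-likelihood test, adjusted p = 0.0166). With inhibitor the difference was 2.28 ± 0.52 (adjusted p = 0.0206) and without it 0.49 ± 0.38 (adjusted p = 0.715). The interaction, which compares these 2 differences, did not pass the edgeR test (1.79 ± 0.68, unadjusted p = 0.0154, adjusted p = 0.545). That test called 0 of 3391 genes, so whether the differences are alike stays undecided.

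The call for Psme2 averaged over inhibitor held in 11 of 14 alternatives, with adjusted p from 0.000159 to 0.21. It was lost with DESeq2's Wald test (adjusted p = 0.125), with the aliquots of a suspension summed (0.21) and without 4C with inhibitor B (0.0907). The call with inhibitor was lost with DESeq2's Wald test (adjusted p = 0.217) and without either 4C with inhibitor library (0.0802 without A and 0.289 without B). Reads of Psme2 are hard to place, since 58.8% of the 50-base words in its transcript end also occur in the retrogene Psme2b or in Gm7928. Psme2b itself stood at 67.6 ± 18.9 CPM at 37C (n = 4) and 72.3 ± 44.2 at 4C (n = 4), without a call (0.12 ± 0.56, adjusted p = 0.949).

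In tumour cells alone the size of the Psme2 difference was close to that in all cells, at 1.34 ± 0.49, but it did not pass the test (adjusted p = 0.156). Tumour cells held 168 to 400 CPM at 37C and 42.5 to 242 at 4C, and these ranges overlapped. T cells held 105 to 371 at 37C and 103 to 259 at 4C. Macrophages had 49 UMIs of Psme2 at 37C, or 357 CPM, and 0 at 4C, which allows up to 269 CPM. Free RNA held 268 CPM at 37C and 138 at 4C, the same direction as the annotated cells. Pooled tumour cell levels were close to these, at 288 CPM at 37C and 158 at 4C. Pooled T cell levels were 331 and 201. The part of free RNA in the Psme2 difference was not tested. The shares of all 4 types also moved with temperature, as given above. Macrophages, whose pooled Psme2 level was 330 CPM, went from 21.3% of cells at 37C to 7.45% at 4C, and the part of these shifts in the all-cell result was not tested.

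**Figure D3:**
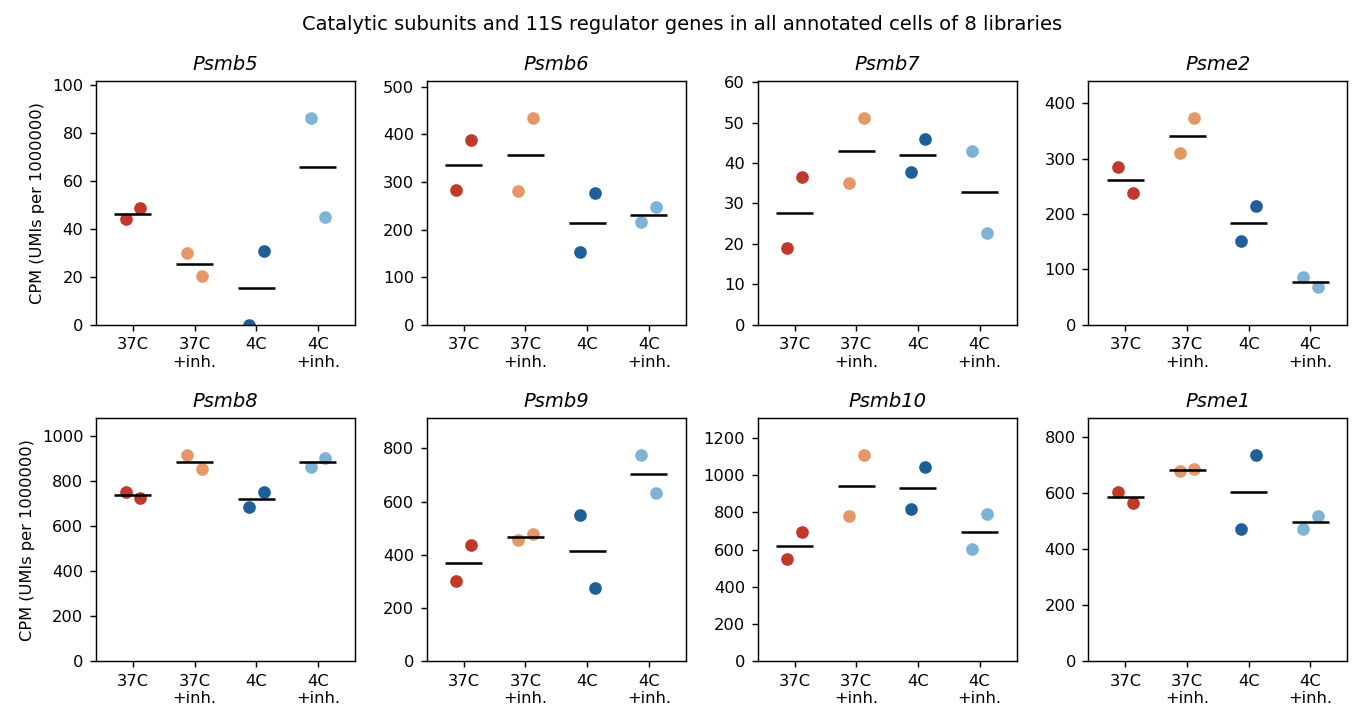
CPM in the 2 libraries of each group (points) and their mean (bar) for the 6 catalytic subunits and the 2 genes of the 11S cap, over all annotated cells, with +inh. for actinomycin D. All 37C points of Psme2 lie above all its 4C points, from 237 to 373 against 67.7 to 215.

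Of the 47 members, 37 passed the filter on low counts, and Psme2 alone was called for temperature, against 3.98% of the 3391 genes tested. Psmb7, Psma4, Psmc3ip, Psme4, the 3 assembly chaperones of the 19S cap and 3 of the 4 of the 20S core did not pass. Without inhibitor 0 members were called, against 1.06% of all genes, with 1 member at an unadjusted p under 0.05 and 0 called by DESeq2. With inhibitor 1 was called, against 1.80% of all genes. In libraries at 37C all above those at 4C were Psmb4, Psmb6 and Psme2, 8.11% of the members against 5.37% of all genes, and no member had all 37C libraries below the 4C libraries, against 4.31%.

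For most members the fitted temperature difference was above 0 without passing the test. This held for 27 of the 37, Psme2 aside. The median log2 fold change over the 37 was 0.35, against a median of 0.04 and 52.5% above 0 over all genes. By role the medians were 0.35 for 6 alpha ring subunits, 0.53 for the 4 other beta subunits, 0.41 for 6 ATPases and 0.44 for 11 non-ATPase subunits of the 19S cap. The 3 immune catalytic subunits had a median of -0.03. Without inhibitor the members' median was 0.11 and with inhibitor 0.51, against -0.01 and 0.07 for all genes. The comparisons share one fit, and members of a complex are not replicates of a condition.

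**Figure D4:**
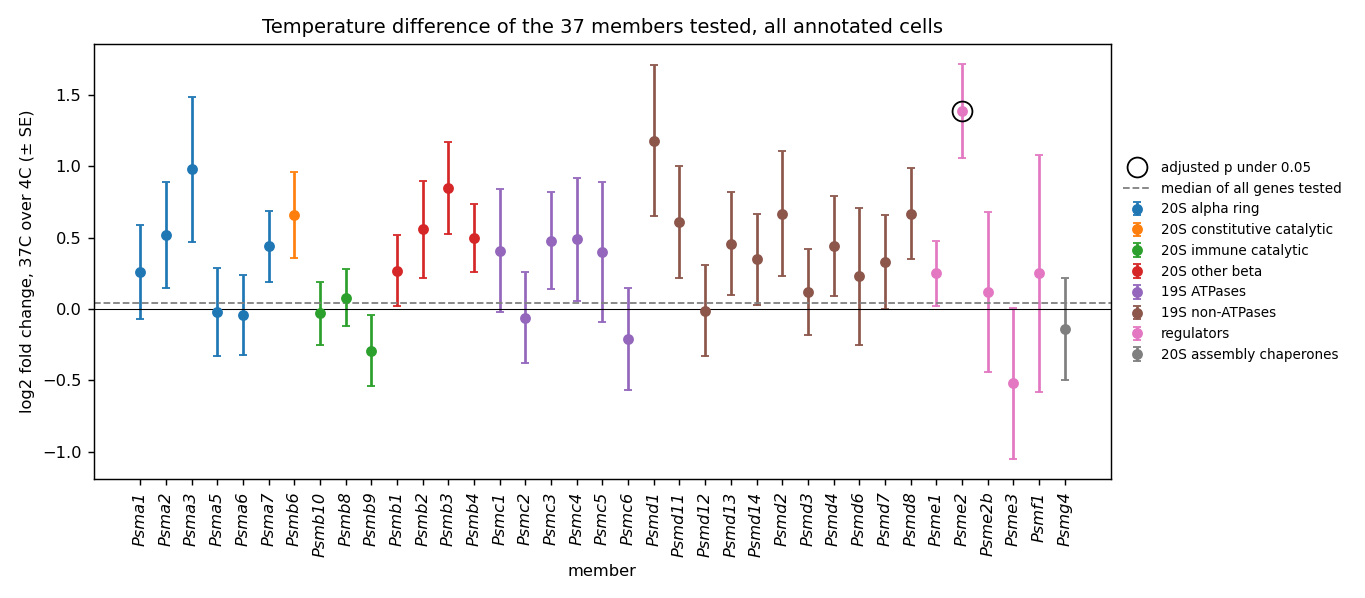
Log2 fold change of 37C over 4C with its standard error for the 37 members tested in all annotated cells, ordered and coloured by role, with the median of all genes as a dashed line. Psme2 is the 1 member past the threshold, and the 3 immune subunits lie within 0.29 of 0 while the 4 other beta subunits lie at 0.27 to 0.85.

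Among the catalytic subunits the constitutive Psmb6, the caspase-like site, was at 284 and 389 CPM at 37C without inhibitor and at 280 and 434 with it. At 4C it was at 152 and 276 without and 215 and 248 with inhibitor. All 37C values were above the 4C values, the closest being 280 and 276, and the difference did not pass the test (0.66 ± 0.30, adjusted p = 0.253). In tumour cells alone the difference was 0.53 ± 0.35 (adjusted p = 0.547).

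Psmb8 was at 752 and 723 CPM at 37C without inhibitor, 915 and 853 with inhibitor, 683 and 752 at 4C without inhibitor and 862 and 902 with it. Both groups with inhibitor were above both groups without, but the share of all genes that separate this way was not counted. The inhibitor differences were 0.29 ± 0.27 at 37C (adjusted p = 0.918) and 0.23 ± 0.31 at 4C (adjusted p = 0.975), and temperature gave 0.08 ± 0.20 (adjusted p = 0.909).

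Psmb10 was at 550 and 693 at 37C without inhibitor, 780 and 1109 with inhibitor, 816 and 1044 at 4C without inhibitor and 603 and 789 with it. The inhibitor groups were thus higher at 37C and lower at 4C. Neither difference passed (0.62 ± 0.29, adjusted p = 0.549, and -0.46 ± 0.34, adjusted p = 0.935), nor did the interaction (1.09 ± 0.44, adjusted p = 0.568).

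Psmb9 was at 303 and 437 at 37C without inhibitor, 455 and 480 with inhibitor, 550 and 276 at 4C without inhibitor and 775 and 631 with it. The highest pair was 4C with inhibitor, and the aliquots of 4C without inhibitor lay far apart. Temperature gave -0.29 ± 0.25 (adjusted p = 0.647) and the inhibitor at 4C 0.70 ± 0.39 (adjusted p = 0.913). Psmb7 and Psmb5 had at most 10 UMIs in any library and were not tested.

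The immune share of catalytic UMIs was 82.2% and 79.6% in aliquots A and B at 37C without inhibitor and 86.2% and 82.8% with inhibitor. At 4C it was 91.5% and 85.4% without inhibitor and 86.7% and 88.0% with it. By temperature the means were 82.7% ± 2.69 (SD, n = 4) and 87.9% ± 2.63 (n = 4), with overlap between 85.4% and 86.2%. In tumour cells alone they were 83.7% ± 3.38 and 89.7% ± 2.89 and in T cells 86.7% ± 3.93 and 85.7% ± 2.76, a difference between the types that was not tested. The single 4C libraries had 8 to 23 constitutive UMIs, and the interval of 4C with inhibitor A ran from 75.4% to 94.1%.

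No member passed the test for the inhibitor. At 37C 0 of 37 members were called, against 1.21% of all genes, with 1 at an unadjusted p under 0.05 (Psmb10) and 0 called by DESeq2. At 4C 0 members and 0% of all genes were called by edgeR, with 2 members at an unadjusted p under 0.05 and 0 called by DESeq2. The interaction called 0 members and 0% of genes, with 2 members at an unadjusted p under 0.05, Psme2 and Psmb10, and 0 by DESeq2. The members' median was 0.15 at 37C and -0.36 at 4C, against 0.01 and -0.06 for all genes. A p that misses the threshold does not show that the groups were alike: the standard errors for named members at 4C were 0.31 to 0.62 on the log2 scale.

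Within tumour cells, 28 members could be tested and 0 were called for temperature by edgeR, against 1.42% of 1756 genes, with 4 at an unadjusted p under 0.05 and 0 called by DESeq2. For the inhibitor at 37C, 0 of 28 were called, against 0.911%, with 2 at an unadjusted p under 0.05 and 0 by DESeq2. Those 2 were Psmb8 (0.57 ± 0.25, adjusted p = 0.661) and Psme2 (0.71 ± 0.35, adjusted p = 0.792). Psmb4 gave 0.71 ± 0.30 for temperature (adjusted p = 0.257), with 525 to 646 CPM at 37C and 201 to 507 at 4C. In T cells Psmb8 and Psmb9 were the 2 members that could be tested, and 0 were called for temperature by edgeR or DESeq2, or at an unadjusted p under 0.05, against 9.57% of 230 genes (-0.07 ± 0.31, adjusted p = 0.916, and 0.37 ± 0.41, adjusted p = 0.625).

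The other abundant members passed no temperature test in all cells. Psma7 was at 647 ± 117 CPM at 37C and 501 ± 135 at 4C (n = 4 each, 0.44 ± 0.25, adjusted p = 0.392), and Psmb4 at 557 ± 27.6 and 409 ± 78.4 (0.50 ± 0.24, adjusted p = 0.318). Psme1, the partner of Psme2 in the 11S cap, was at 634 ± 58.4 and 551 ± 126 (0.25 ± 0.23, adjusted p = 0.664). Psmb1 was at 421 ± 11 and 354 ± 85.7 (0.27 ± 0.25, adjusted p = 0.67) and Psma1 at 297 ± 78.2 and 243 ± 131 (0.26 ± 0.33, adjusted p = 0.769). The ATPase Psmc3 ranged from 43.1 to 451 between the 2 aliquots of 4C with inhibitor. Its difference was 0.48 ± 0.34 (adjusted p = 0.535), and 2.03 (adjusted p = 0.0341) without 4C with inhibitor B, a value that rests on the 1 UMI of the other aliquot.

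All 47 members together held 9590 ± 735 CPM at 37C without inhibitor, 10470 ± 1076 with inhibitor, 9087 ± 217 at 4C without inhibitor and 8248 ± 393 with it (SD, n = 2 each). The single libraries ran from 9071 to 11231 at 37C and from 7970 to 9240 at 4C and overlapped. In tumour cells the sums were 10729 ± 755 and 9373 ± 937 by temperature (n = 4 each), in T cells 9694 ± 909 and 7837 ± 1204. Free RNA gave 8150 ± 727 at 37C and 7324 ± 805 at 4C, again lower at 4C.

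Other genes of the pathway were taken from 4 lists. Of the genes that load peptides onto MHC class I, 10 of 12 could be tested for temperature in all cells and 0 were called. Their median was -0.00 (all genes 0.04), with B2m, the class I light chain, at 0.01 ± 0.12 (adjusted p = 0.988) and Tap1, which carries peptides into the endoplasmic reticulum, at -0.06 ± 0.34 (adjusted p = 0.964). Of the genes of interferon gamma signalling, 10 of 12 were tested and 2 fell at 37C, Ifngr1, a receptor chain (-1.29 ± 0.33, adjusted p = 0.0273), and Socs1, a feedback inhibitor (-1.51 ± 0.37, adjusted p = 0.0225), with a list median of -0.58. All genes called in this comparison were 3.98%. Ifngr1 was called higher in T cells, NK cells and macrophages than in tumour cells. The shares of T cells and NK cells were larger at 4C, and that of macrophages was smaller. Within T cells the temperature difference of Ifngr1 was -0.39 ± 0.36 (edgeR adjusted p = 0.563). For Socs1 in tumour cells the difference was -0.37 ± 0.61 (adjusted p = 0.828), and the part of the cell type shares in both results was not tested. Irf1, a transcription factor that turns on the immune subunit genes, was at -0.64 ± 0.27 (adjusted p = 0.22). Of the ubiquitin genes and proteasome partners, 16 of 23 were tested and 1 rose, Rps27a, a fusion of ubiquitin and a ribosomal protein (0.83 ± 0.22, adjusted p = 0.0281), with a median of 0.34. Of 4 genes for the transcription of proteasome genes, 2 were tested and 0 called.

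Between types, Ifngr1 was higher in T cells than in tumour cells (5.10 ± 0.45 in the edgeR fit) and in NK cells (5.63 ± 0.50). It was also called higher in macrophages than in tumour cells. The class I genes H2-K1 and H2-D1 were also higher in T cells (0.99 ± 0.15 and 0.73 ± 0.13). Of the 5 class I genes tested in T cells 3 rose, in a fit where 69.8% of all genes were called. Among the ubiquitin genes and partners, Sqstm1, Rps27a and Sem1 fell in T cells.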

How the data were processed

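The authors deposited, per library, raw counts of UMIs per gene and barcode, and for the series a table of natural log expression of 654 cells and an annotation of their library and type. Per the submitters' processing notes, the build was GRCm38 and the tools were STAR 2.7.1a, UMI-tools, featureCounts 1.6.0, Seurat and SAMtools. The sources used here do not give settings, strand, cell filters or doublet handling, and no doublet caller was run. The log values above 0 were proportional to the counts for 99.9873% within 0.001. Of 17580 gene identifiers 17520 received a GENCODE vM21 symbol.

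Raw counts were summed over annotated cells per library, or per library and type with at least 5 cells (10 within a type). Levels are UMIs per 1000000 of the sum (CPM). Tests were edgeR 4.0.16 quasi-likelihood fits (R 4.3.3, TMM, filterByExpr, two-sided), with Benjamini-Hochberg adjustment over all genes tested and calls at an adjusted p under 0.05. Alternatives included DESeq2 1.42.0, and scripts were tested on simulated data. Named genes are the catalytic subunits, Psme1, Psme2, the 10 members with most UMIs, every called member, and Irf1, B2m, Tap1 and called genes of the pathway lists, of which some are not reported here. Members and lists were chosen with earlier results of these data known.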

Additional observations from a re-analysis of the deposited data

Results flagged for a closer look

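At 37C, 104 barcodes with over 5000 UMIs each carry no cell type in the authors' annotation and enter no comparison. They held 841059 UMIs, of which 9064 were of the 47 members, or 10777 CPM, beside 10030 ± 908 (SD, n = 4) in the annotated cells of the same libraries. By library the value was 10526, 10961, 10466 and 11343. Their immune share of catalytic UMIs was 83.1% (exact 95% interval 81.3 to 84.7). They were looked at because they are large and unused.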

How the results depend on the processing

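Of 198 recomputed counts and levels, 162 stayed within 1.5 times of the main value or within 1 SD. For temperature in all cells the members called went from 1 to 2 without a filter (2.02% of genes), 11 with all barcodes (17.2% of 7515 genes), and 0 with DESeq2's Wald test, summed aliquots or thinned libraries, where 7 members, without Psme2, could be tested, and leaving out 1 library gave 1 to 3. Without inhibitor all barcodes gave 1 in place of 0 (4.64% of genes). With inhibitor the count of 1 became 4 with all barcodes (10.6% of genes) and 0 with DESeq2's Wald test or thinned libraries, and leaving out 1 library gave 0 to 1. In tumour cells the temperature count of 0 became 3 without a filter (0.935% of genes) and 0 to 2 with 1 library left out. In T cells, macrophages and NK cells against tumour cells the counts of 3, 1 and 2 became 12, 8 and 15 without a filter (16.0%, 14.4% and 12.7% of genes) and 0, 0 and 0 with cells thinned to 200 UMIs, where 0 members could be tested, and leaving out 1 library gave 1 to 4, 0 to 1 and 1 to 2. A minimum of 10 cells gave 3 in macrophages. Chosen after seeing the data, libraries at 4C alone gave 1, 0 and 1, and those at 37C alone gave 2 in macrophages. Without Psmb10 and Psmb7 the immune share was 76.2% at 37C and 83.6% at 4C. Of 1463 recomputed values of single genes, 18 lost a call and 13 gained one. No called result reversed, but 109 of these single gene values turned sign, all without a call in either fit, and the causes were not tested.

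The labels name nothing that the A libraries of different suspensions share. Deviations of A libraries correlated between groups at -0.0278 to 0.239, highest between 37C without and 37C with inhibitor. The mast cell and basophil markers in macrophages, given above, also came mainly from A libraries. What the A libraries may share was not tested. With the letter as replicate block the members called for temperature in all cells stayed at 1. The 4C libraries limit these results, with 185 to 602 UMIs of all 47 members each, against 1436 to 2198 at 37C.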
